A study of Mus musculus with 40 samples.

Results

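Nuclear receptors are transcription factors that bind DNA through a zinc finger domain and carry a pocket for a small lipophilic ligand such as a steroid, thyroid hormone, retinoid, fatty acid or bile acid. Many of them pair with a retinoid X receptor (RXR), exchange corepressors for coactivators when ligand binds, and so couple the supply of a hormone or nutrient to transcription. In the kidney they are known for the fatty acid oxidation and transport programme of the proximal tubule and for salt and hormone handling further along the nephron. The genes described here are 33 receptors of this family and 4 coregulators, chosen by name and family membership. The choice was made with earlier results of these data known. The 37 genes are among 55359 genes in the deposited files, and 36 of them were among the 17345 genes with enough counts to test.

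Transcripts were counted by bulk RNA sequencing in the right kidneys of 40 male C57BL/6 mice (C57BL/6NCrl in the design text) in 8 groups of 5. The vehicle group received sesame oil, and the other groups received TCDD (2,3,7,8-tetrachlorodibenzo-p-dioxin, a persistent ligand of the Ah receptor) in sesame oil at 0.03, 0.1, 0.3, 1, 3, 10 or 30 µg/kg. Dosing was by oral gavage at intervals of 4 days over 28 days, and mice were 30 days old at the start and 58 at the end. Tissue was always taken early in the light phase. The labels name no altered allele in any group. Each library is 1 kidney, and in such bulk tissue fewer cells of a type and less RNA per cell cannot be told apart.

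Gene counts summed to between 15278423 and 25575317 per library, and 7.31 to 11.3% of them were mitochondrial. The labels name the tissue as kidney, but their ontology code for the source is the one of liver. Transcripts of kidney tubules were abundant in the vehicle libraries: Slc34a1, a phosphate carrier of the proximal tubule, stood at 7208 ± 705 counts per 1000000 gene counts (CPM; SD, n = 5) and Umod, of the thick ascending limb, at 964 ± 374 CPM, against 7.41 ± 1.05 CPM for Alb, the main liver secretory protein. Cyp1a1, the classical Ah receptor target, was at 2.37 ± 1.25 CPM in vehicle mice and 2537 ± 436 CPM at 30 µg/kg. A few libraries stood apart. In vehicle replicates 1 and 2, Slc7a13, a marker of the S3 segment of the proximal tubule, was at 302 and 350 CPM against 726 to 778 CPM in the other vehicle libraries. At 30 µg/kg, replicates 3 and 4 had the lowest Slc7a13 of all (18.8 and 71.4 CPM). Transcripts of the adrenal cortex were most abundant in 0.03 µg/kg replicate 1 and 1 µg/kg replicate 4 (Cyp11b1 at 89.4 and 95.6 CPM). Cyp11b1 was also at 4.09 CPM in 3 µg/kg replicate 2, and at 0 to 0.203 CPM in the rest.

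Compared per length of exon in the vehicle kidneys, Hnf4a was the most abundant of the genes, at 197 ± 12.5 CPM per kb (SD, n = 5). Hnf4a encodes a receptor-type factor that defines proximal tubule cells, and its lowest library (181 CPM per kb) was far above the highest of any other member. Next came Nr1h4 (the bile acid receptor FXR) at 41.5 ± 10.2 CPM per kb, Esrra (estrogen related receptor alpha) at 37.1 ± 3.51 CPM per kb and Rxra at 34.6 ± 3.71 CPM per kb, whose ranges overlapped each other. Nr1h2 (LXR beta) followed at 26.2 ± 1.39 CPM per kb, below the range of Rxra. In the middle of the order most neighbours overlapped. The lowest levels were those of Nr4a3, at 0.0387 CPM per kb, and of Nr1i3 (the xenobiotic receptor CAR), which had no count in any vehicle library.

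**Figure D1:**
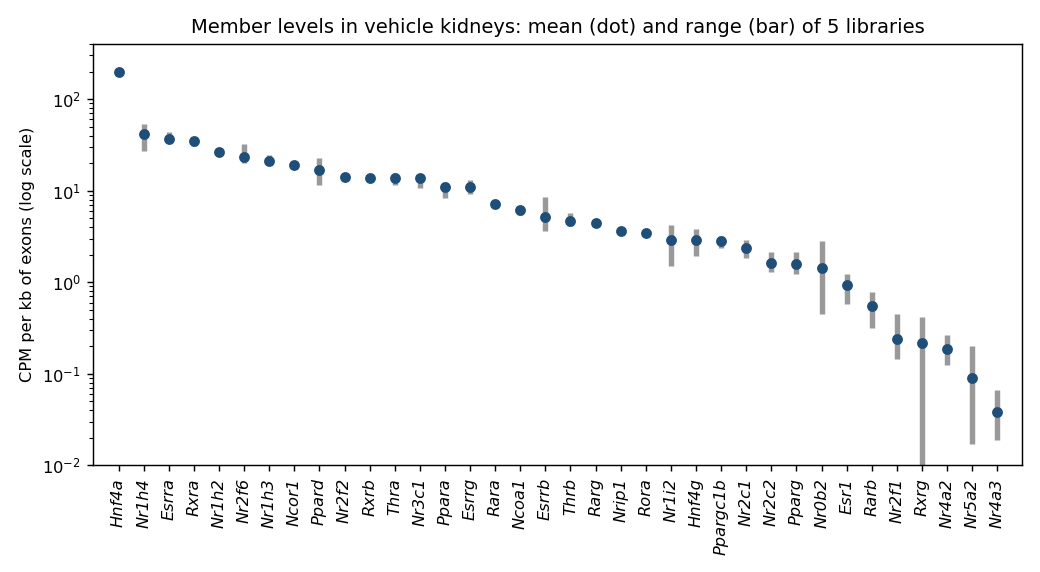
Levels of the members in the 5 vehicle kidneys in CPM per kb of exons, on a log axis, ordered from highest to lowest; dots are means and bars run from the lowest to the highest library. Hnf4a stands apart at 197 CPM per kb; Rxrg has 1 library at 0, so its bar is drawn to the lower edge, and Nr1i3, at 0 in every vehicle library, is not drawn.

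Each dose was compared with vehicle, so the 7 comparisons share the same 5 vehicle libraries. A gene was called when its adjusted p was under 0.05 in edgeR's quasi-likelihood test, fitted to all 40 libraries with Benjamini-Hochberg adjustment over all 17345 genes. From 0.03 to 3 µg/kg edgeR called 0 of the 36 members at each dose. Of all genes it called 0.0% at 0.03 µg/kg, 0.0% at 0.1 µg/kg, 0.00577% at 0.3 µg/kg, 0.513% at 1 µg/kg (0.507% higher and 0.00577% lower) and 1.09% at 3 µg/kg (1.03% higher and 0.0634% lower). DESeq2 called 1 member at 1 µg/kg, Nr4a3, and 0 at the other 4 of these doses. With an unadjusted edgeR p under 0.05 there were 4 members (11.1%) at each of 0.03, 0.1 and 0.3 µg/kg. The shares of all genes there were 5.67%, 5.53% and 5.23%. At 1 µg/kg there were 2 members (5.56%) beside 7.1% of all genes, and at 3 µg/kg 4 (11.1%) beside 8.95%.

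The first member to be called was Rarg at 10 µg/kg, where 1 member (2.78%) was called beside 4.82% of all genes (3.82% higher and 0.997% lower). Unadjusted, 5 members (13.9%) passed there beside 15.7% of all genes. At 30 µg/kg 6 members were called, which is 16.7% beside 15.9% of all genes. Of the 6, 4 rose (Pparg, Rarg, Nr1i2 and Nr4a3; 8.39% of all genes rose) and 2 fell (Ppard and Hnf4a; 7.55% of all genes fell). Unadjusted, 11 (30.6%) passed beside 27.6% of all genes. These shares are close to those of genes at large, so the count of calls sets the members apart at neither dose. The median log2 fold change of the members at 30 µg/kg was 0.04, beside 0.01 over all genes.

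A fit along the rank of the doses, from 0 for vehicle to 7 for 30 µg/kg, called 6 members (16.7%) beside 19.8% of all genes. Along the rank, 2 rose (Pparg and Rxrg; 11.0% of all genes rose) and 4 fell (Ppard, Hnf4a, Esrra and Thra; 8.84% of all genes fell). Unadjusted, 9 members (25%) passed beside 30.8% of all genes. The comparison of 30 with 10 µg/kg, which holds no vehicle library, called 1 member (2.78%), Nr1i2, which was higher. Of all genes 2.7% were called there (1.19% higher and 1.52% lower). Unadjusted, 5 members (13.9%) passed there beside 14.6% of all genes. Together 9 members were called in at least 1 comparison and 27 in none.

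**Figure D2:**
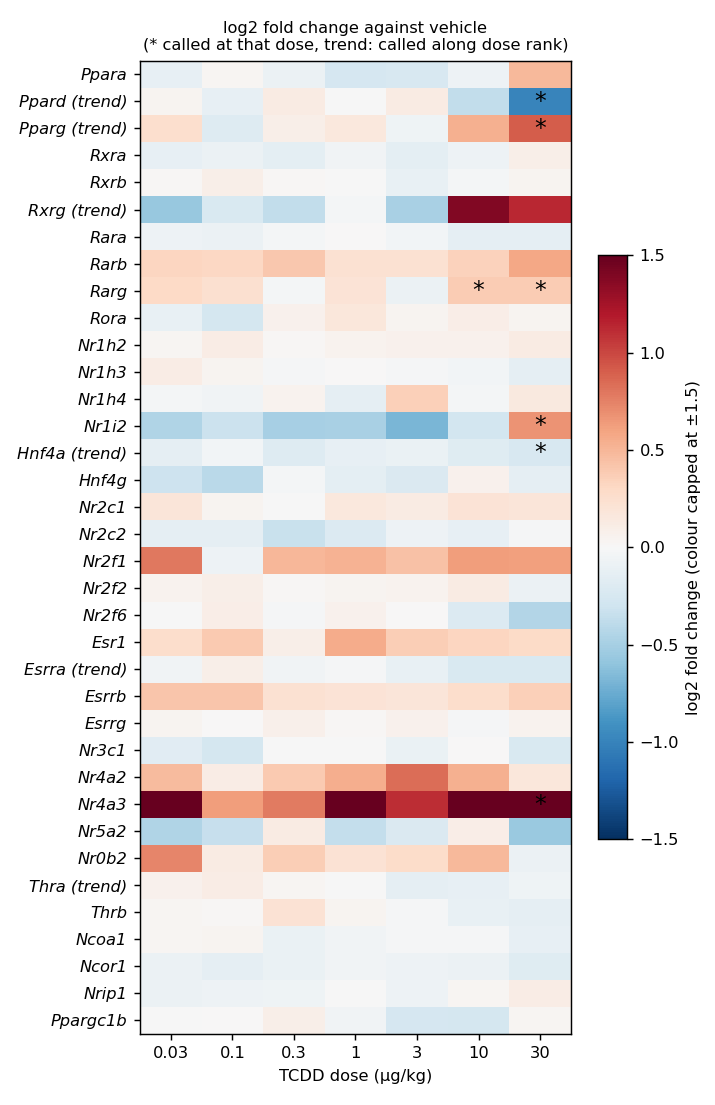
log2 fold changes of the 36 tested members against vehicle (rows) at the 7 TCDD doses in µg/kg (columns); colour gives the fold change, a star marks an edgeR call at that dose and the word trend a call along the dose rank. Colours stop at 1.5 in each direction. Stars appear at 10 µg/kg for Rarg and at 30 µg/kg for 6 members; the deep colours of Nr4a3 and Rxrg belong to genes with few counts.

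The peroxisome proliferator-activated receptors (PPARs) sense fatty acids and their derivatives, and at the highest dose Ppard fell, Pparg rose and Ppara was not called. Ppard encodes the broadly expressed PPAR delta. Its level in the vehicle libraries was 170, 137, 110, 124 and 86.7 CPM, and in the 30 µg/kg libraries 96.1, 73.6, 37.4, 35.1 and 72.1 CPM. All but 1 of the 30 µg/kg libraries lay below every vehicle library, and replicates 3 and 4 were the lowest. The log2 fold change came to -0.995 (SE 0.22, edgeR adjusted p = 0.00136). At 10 µg/kg the level was 97.4 ± 22.9 CPM (SD, n = 5; log2 fold change -0.37, adjusted p = 0.435 with edgeR), with 2 of 5 libraries below all vehicle libraries. Below that dose the group means ran from 115 to 137 CPM, around the vehicle mean of 126 ± 31.2 CPM. The fall at 30 µg/kg was called by edgeR without each vehicle or 30 µg/kg library in turn (log2 fold change -1.20 to -0.84) but not in a fit to the 2 groups alone (adjusted p = 0.0964, over a range of 5.63e-05 to 0.0964 in the settings other than leaving out 1 library). The slope along the dose rank was -0.09 per rank (edgeR adjusted p = 0.0289) and was not called without vehicle replicate 1 (-0.09 per rank) or without 30 µg/kg replicate 2, 3, 4 or 5 (-0.09 to -0.07 per rank, edgeR adjusted p up to 0.0653), nor without vehicle replicates 1 and 2 together (edgeR adjusted p = 0.0630). Without the 30 µg/kg group the slope was -0.03 per rank (edgeR adjusted p = 0.662).

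In the RefSeq promoter of Ppard (GRCm38.p6, gene strand), the stretch just before the start site holds the motif GCGTG, the core of the sequence that the Ah receptor complex is known to bind. It is printed because Ppard had the lowest adjusted p of the members at 30 µg/kg. The capitals mark the motif, at chr17:28232730-28232753:
Ppard: gcgccggggctgggaGCGTGtgac
GCGTG or its reverse complement CACGC occurred in the 250 bases before the start in 28.2% of 32851 promoters of all genes. It occurred in 22 of the 54 promoter entries (40.7%) that matched 33 of the members by symbol, and 4 members matched none. A longer form, TNGCGTG, which contains the shorter one, occurred in 4.1% of all promoters and in 2 of the 54. A match describes letters only and does not show binding.

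Pparg encodes PPAR gamma, the regulator of fat cell differentiation, and was low in kidney. Vehicle libraries held 4.72, 3.85, 6.26, 5.00 and 3.63 CPM, and those at 30 µg/kg 8.41, 9.22, 6.64, 10.3 and 9.63 CPM. The 2 groups did not overlap, which was so for 6.41% of all genes at this dose. In log2 units the change was 0.91 (SE 0.29, edgeR adjusted p = 0.0248), and the slope along the dose rank was 0.10 per rank (edgeR adjusted p = 0.0194). The values at 10 µg/kg were 6.22, 6.48, 4.87, 11.8 and 4.42 CPM, so 1 library was high and the others were near vehicle. The call at 30 µg/kg was lost without vehicle replicate 2 or 5 or 30 µg/kg replicate 4 or 5 (log2 fold change 0.83 to 0.88, edgeR adjusted p 0.0525 to 0.0663), with no filter on low counts (0.91, edgeR adjusted p = 0.0642) and without vehicle replicates 1 and 2 together (0.82, edgeR adjusted p = 0.122). The slope was not called without 30 µg/kg replicate 4 (0.09 per rank, edgeR adjusted p = 0.0538), and without the 30 µg/kg group it was 0.05 per rank (edgeR adjusted p = 0.547). Of 9 adipocyte genes tested at 30 µg/kg, Ucp1 rose, Lep fell and 7 were not called. Their summed level ran from 124 to 332 CPM in vehicle mice, 85.6 to 454 CPM at 10 µg/kg and 310 to 684 CPM at 30 µg/kg. The part of fat cells in the rise of Pparg was not tested. Of 14 known PPAR gamma targets, 1 rose and 2 fell, with a median log2 fold change of 0.35, and Cd36, a fatty acid carrier, fell by 1.11 on the log2 scale (edgeR adjusted p = 2.77e-05).

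Ppara encodes PPAR alpha, which drives fatty acid oxidation. It was at 47.0, 47.7, 31.9, 44.8 and 40.7 CPM in vehicle mice and 30.8, 67.3, 95.9, 65.6 and 37.5 CPM at 30 µg/kg. Replicates 2, 3 and 4 were above all vehicle libraries and replicate 1 was below them. The difference was not called (log2 fold change 0.48, SE 0.21, edgeR adjusted p = 0.112), and its value ranged from 0.24 to 0.65 when single libraries were left out. Without 30 µg/kg replicate 1 or 5 it was called (0.65 and 0.61, edgeR adjusted p = 0.0139 and 0.0416, over a range of 0.0139 to 0.478). Of 33 tested genes of fatty acid oxidation known as its targets, 22 rose and 2 fell at 30 µg/kg, with a median log2 fold change of 0.73, against 1 that rose at 10 µg/kg. The summed level of the list was 9216 to 11210 CPM in vehicle mice (median 10720 CPM). At 30 µg/kg it was 9611 to 22580 CPM, with a median of 10850 CPM, so the median library was close to that of vehicle.

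Among these targets Cyp4a14, a fatty acid hydroxylase, rose by 5.60 on the log2 scale (edgeR adjusted p = 1.06e-06), with 15.3 to 38.7 CPM in vehicle. At 30 µg/kg it was at 141, 171, 3393, 2004 and 623 CPM. Pdk4, a kinase that restrains glucose oxidation, was at 32.9, 79.2, 720, 494 and 111 CPM there, against 17.1 to 35.7 CPM in vehicle. So the same 2 libraries, replicates 3 and 4, were the highest for both targets, had the lowest Ppard, and had the lowest Slc7a13. In the vehicle group the pairing was the reverse. Replicates 1 and 2 there had the lowest Slc7a13 (302 and 350 CPM) and the highest Ppard (170 and 137 CPM). Acot1, an acyl-CoA thioesterase, rose by 1.45 on the log2 scale (edgeR adjusted p = 5.52e-05). It was at 116, 118.5, 401, 385 and 159 CPM at 30 µg/kg, against 68.8 to 118.6 CPM in vehicle, apart from 66.3 CPM in vehicle replicate 2. Of the 7 S3 markers, 1 rose and 4 fell at 30 µg/kg, and their summed level was 1710 to 3603 CPM in vehicle mice and 449 to 2794 CPM at 30 µg/kg. The part of the S3 segment in these results was not tested.

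**Figure D3:**
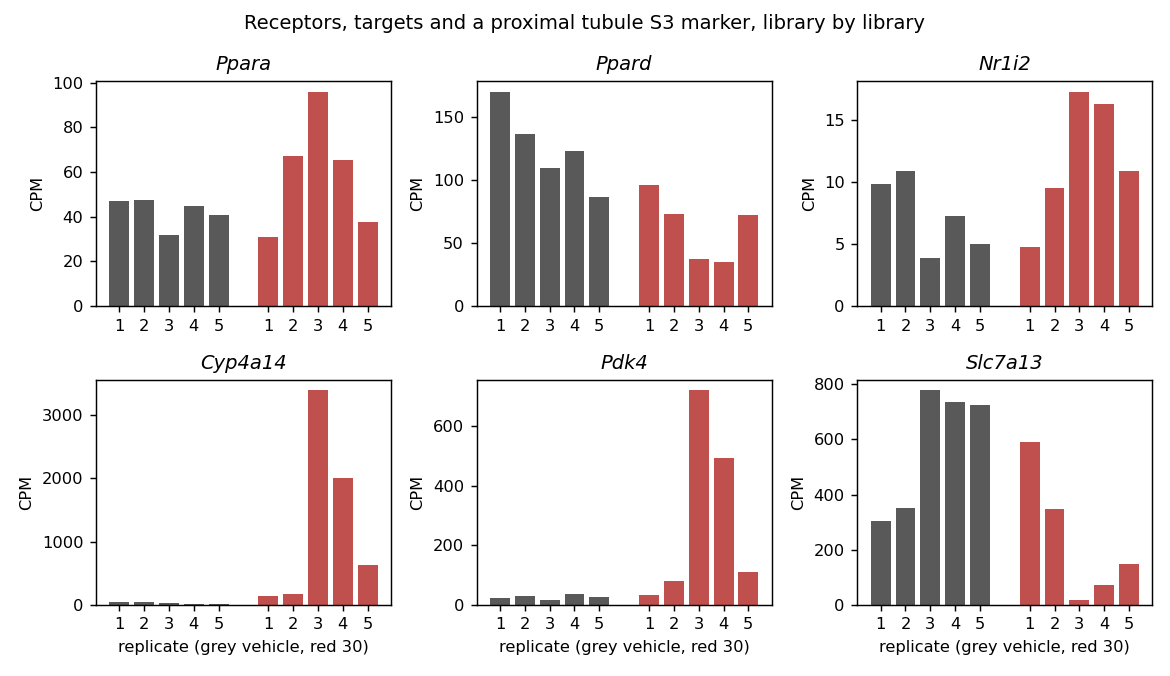
Level in CPM (vertical axes from 0) of 3 receptors, 2 PPAR alpha targets and the S3 marker Slc7a13 in each of the 5 vehicle (grey) and 5 30 µg/kg (red) libraries, by replicate number, which pairs no libraries across groups. At 30 µg/kg, replicates 3 and 4 show the highest Nr1i2 (17.3 and 16.3 CPM), Cyp4a14 and Pdk4 and the lowest Ppard and Slc7a13.

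The retinoid X receptors are the shared partners of many other receptors. Rxra (189 ± 20.3 CPM in vehicle, 200 ± 19.7 CPM at 30 µg/kg; SD, n = 5) and Rxrb (54.3 ± 2.30 and 55.7 ± 6.63 CPM) were called at no dose. Rxrg was barely counted in kidney: it stood at 0.52, 0.66, 0.95, 0 and 0.40 CPM in vehicle mice, 1.16, 1.82, 0.57, 1.80 and 1.42 CPM at 10 µg/kg and 0.57, 1.19, 1.36, 0.62 and 1.95 CPM at 30 µg/kg. It had 0 to 22 counts in the vehicle libraries and 10 to 51 at 30 µg/kg. No dose was called against vehicle (edgeR adjusted p = 0.320 at 10 µg/kg and 0.300 at 30 µg/kg), whereas the slope along the dose rank was (0.23 per rank, edgeR adjusted p = 0.0244). That slope was not called without 30 µg/kg replicate 5 (0.20 per rank, edgeR adjusted p = 0.0682) or without the 30 µg/kg group (0.21 per rank, edgeR adjusted p = 0.188). Rxrg is known from muscle and brown fat. Of the marker lists, that of fat cells is given above, and of 6 skeletal muscle genes 1 was tested and was not called. At 10 µg/kg 1 of the 9 fat cell genes rose and none fell. Of that list, Ucp1 was at 4.19 to 16.0 CPM in vehicle mice. It was at 54.7, 109, 10.3, 115 and 50.5 CPM at 10 µg/kg and 54.3, 114, 67.5, 120 and 110 CPM at 30 µg/kg. The part of fat cells in the level of Rxrg was not tested.

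The retinoic acid receptors bind a vitamin A derivative and pair with an RXR. Rarg, which encodes RAR gamma, was at 18.3, 19.1, 20.6, 17.8 and 17.8 CPM in vehicle. At 10 µg/kg it was at 23.1, 25.3, 24.9, 25.9 and 23.0 CPM, and at 30 µg/kg at 23.7, 19.8, 21.6, 29.2 and 27.9 CPM. The 10 µg/kg libraries all lay above the vehicle libraries, as did all but 1 at 30 µg/kg; 6.15% of all genes had no overlap with vehicle at 10 µg/kg. The log2 fold changes were 0.38 at 10 µg/kg (SE 0.11, edgeR adjusted p = 0.0364) and 0.39 at 30 µg/kg (SE 0.11, edgeR adjusted p = 0.0134). The mean at 0.03 µg/kg was 23.1 ± 1.28 CPM (SD, n = 5), without a call (edgeR adjusted p = 0.848). At 3 µg/kg the mean was 17.6 ± 2.78 CPM, so the group means did not climb evenly with dose. No trend along the dose rank was called (edgeR adjusted p = 0.186). At 10 µg/kg the call was lost without vehicle replicate 1, 2, 4 or 5 or 10 µg/kg replicate 2, 3 or 4 (log2 fold change 0.36 to 0.39, edgeR adjusted p 0.0637 to 0.0939), and at 30 µg/kg without replicate 4 or 5 (0.31 and 0.33, edgeR adjusted p 0.0769 and 0.0564). Without vehicle replicates 1 and 2 together it was called at neither dose (edgeR adjusted p = 0.140 at 10 µg/kg and 0.0541 at 30 µg/kg), and in a fit to the 2 groups alone it was not called at 30 µg/kg (edgeR adjusted p = 0.0734).

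Rarg has 2 promoter entries in RefSeq. The one nearer the coding part is printed because it holds the motif 3 times before the start, starting at bases -201, -189 and -110 (gene strand, chr15:102246501-102246750 of GRCm38.p6), and the other entry holds none:
Rarg: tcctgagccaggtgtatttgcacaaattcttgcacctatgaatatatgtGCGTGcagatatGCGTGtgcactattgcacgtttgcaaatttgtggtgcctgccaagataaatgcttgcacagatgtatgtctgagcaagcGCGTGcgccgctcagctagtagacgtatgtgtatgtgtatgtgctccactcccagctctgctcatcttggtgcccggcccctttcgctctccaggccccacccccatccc
Of the other retinoic acid receptors, Rara was at 31.1 ± 2.07 CPM in vehicle mice and 28.4 ± 1.86 CPM at 30 µg/kg, and Rarb at 2.89 ± 1.04 and 4.31 ± 0.966 CPM (SD, n = 5). Neither was called, and 38.4% of the exonic bases of Rarb are shared with Top2b and another gene, so its counts are uncertain. The libraries do not mark strand, since the deposited counts of either strand hold about the same number of reads. Among 16 tested retinoid enzymes and retinoic acid targets, Rarb included, 8 rose and 1 fell at 30 µg/kg, with a median log2 fold change of 0.78. Dhrs3, which turns retinal back to retinol, rose by 0.75 on the log2 scale (edgeR adjusted p = 2.21e-06). Cyp26b1, which degrades retinoic acid, was at 4.54, 44.2, 69.0, 33.2 and 47.5 CPM at 30 µg/kg against 1.38 to 7.86 CPM in vehicle (log2 fold change 3.11, edgeR adjusted p = 0.00159). Rora, a related orphan receptor, was not called (45.5 ± 2.40 CPM in vehicle, 47.0 ± 9.09 CPM at 30 µg/kg; SD, n = 5).

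Receptors for bile acids, oxysterols and foreign compounds form the next group. Nr1i2, which encodes the pregnane X receptor (PXR), was at 9.85, 10.9, 3.84, 7.30 and 4.99 CPM in vehicle mice and 4.77, 9.50, 17.3, 16.3 and 10.9 CPM at 30 µg/kg. Replicates 3, 4 and 5 of the high dose lay above all vehicle libraries and replicate 1 within their range. In log2 units the change was 0.67 (SE 0.24, edgeR adjusted p = 0.0446). Vehicle replicates 1 and 2, the 2 with low Slc7a13, had the highest Nr1i2 of their group. With both left out, the rise was 1.13 on the log2 scale (edgeR adjusted p = 0.00232). The group means from 0.03 to 3 µg/kg, 4.57 to 5.91 CPM, were below the vehicle mean of 7.37 ± 3.03 CPM, with no call. The level at 10 µg/kg was 6.08 ± 1.00 CPM (SD, n = 5), and 30 µg/kg exceeded it by 0.95 on the log2 scale (SE 0.24, edgeR adjusted p = 0.0173).

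The call of Nr1i2 against vehicle was lost without vehicle replicate 3, 4 or 5 or 30 µg/kg replicate 3, 4 or 5 (log2 fold change 0.49 to 0.70, edgeR adjusted p 0.0588 to 0.185). It was also lost with no filter on low counts (edgeR adjusted p = 0.0688), from the deposited counts of 1 strand (0.130) and in a fit to the 2 groups alone (0.321). Its call against 10 µg/kg was lost without 10 µg/kg replicate 1 or 5 or 30 µg/kg replicate 3 or 4 (0.77 to 0.94, edgeR adjusted p 0.0509 to 0.137), from the counts of 1 strand (0.103) and in a fit to the 2 groups alone (0.301). The promoter of Nr1i2 (gene strand, chr16:38294825-38295074 of GRCm38.p6) is printed for comparison with the 2 above, since it has no capitals, that is, no GCGTG on either strand:
Nr1i2: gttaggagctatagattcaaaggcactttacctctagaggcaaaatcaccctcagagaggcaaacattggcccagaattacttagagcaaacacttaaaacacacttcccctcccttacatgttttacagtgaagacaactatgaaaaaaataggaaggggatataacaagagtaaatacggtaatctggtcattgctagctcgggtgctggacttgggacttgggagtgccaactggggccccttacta
Nr1i3 encodes CAR, the partner sensor of PXR. It had 0 counts in all vehicle libraries and 3, 4, 3, 4 and 14 counts at 30 µg/kg (0.17 to 0.535 CPM), and was too low to test. Its counts at 10 µg/kg were 0, 5, 0, 6 and 0. Without the filter on low counts, edgeR called it at 30 µg/kg (adjusted p = 0.0376). The same fit without the filter called it along the dose rank (0.67 per rank, edgeR adjusted p = 0.000741). Since 74.8% of its exonic bases are shared with Tomm40l, which was at 6.64 to 10.5 CPM in vehicle mice and 6.10 to 11.4 CPM at 30 µg/kg, these few counts are uncertain. Of 11 tested CAR and PXR targets 5 rose and none fell (median log2 fold change 0.52). The transporter Abcc3 had the lowest p of these (log2 fold change 1.81, edgeR adjusted p = 8.61e-07). Cyp2b10, Cyp3a11 and Cyp2c29, the textbook targets in liver, were too low to test. Cyp2b10 was at 0.114, 0.113, 1.49, 2.58 and 0.611 CPM at 30 µg/kg, against 0 to 0.657 CPM in vehicle. Cyp3a11 was at 0 to 0.407 CPM at 30 µg/kg and 0 to 0.152 CPM in vehicle. Cyp2c29 was at 0 to 0.203 and 0 to 0.329 CPM.

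The oxysterol receptors Nr1h3 (LXR alpha; 53.1 ± 5.82 CPM in vehicle, 48.2 ± 2.74 CPM at 30 µg/kg) and Nr1h2 (LXR beta; 87.8 ± 4.65 and 95.4 ± 11.0 CPM) were not called (SD, n = 5). Of 13 LXR targets tested, Nr1h3 included, 5 rose and 2 fell (median log2 fold change 0.31). Abca1, a cholesterol exporter, rose by 0.64 on the log2 scale (edgeR adjusted p = 0.0473). Srebf1, the lipogenic regulator, had a log2 change of -0.33 (edgeR adjusted p = 0.202). Nr1h4 (FXR) was not called, at 95.6 ± 23.4 CPM in vehicle mice and 106 ± 42.1 CPM at 30 µg/kg (SD, n = 5), and Nr0b2, which encodes its target SHP, was at 1.64 ± 1.05 and 1.53 ± 0.492 CPM. In the list of 10 FXR and SHP genes, 1 rose (Slc51a, a bile acid exporter subunit, 0.71 on the log2 scale) and 1 fell (Fgfr4, -0.45), both with edgeR adjusted p under the threshold (0.00358 and 0.000101).

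Hnf4a was the most abundant member and moved little. It was at 1012, 1013, 918, 947 and 874 CPM in vehicle mice and 852, 841, 967, 734 and 640 CPM at 30 µg/kg, and 4 of 5 libraries at 30 µg/kg lay below all vehicle libraries. In log2 units the change was -0.24 (SE 0.08, edgeR adjusted p = 0.0243). At 10 µg/kg all 5 libraries, 815 to 851 CPM, were below vehicle, though the difference was not called (log2 fold change -0.18, edgeR adjusted p = 0.193). Of all genes, 6.15% had no overlap with vehicle at 10 µg/kg. The slope along the dose rank was -0.02 per rank (edgeR adjusted p = 0.0320). Vehicle replicates 1 and 2 were the highest of their group, and without both the log2 change at 30 µg/kg was -0.18 (edgeR adjusted p = 0.182). It was also not called without vehicle replicate 1 or 2 or 30 µg/kg replicate 4 or 5 (-0.22 to -0.17, edgeR adjusted p 0.0638 to 0.131), and the slope was lost without the same 4 libraries (-0.02 per rank, edgeR adjusted p 0.0623 to 0.0977). In a fit to the 2 groups alone the fall was not called (edgeR adjusted p = 0.215), nor was the slope without the 30 µg/kg group (edgeR adjusted p = 0.153) or without vehicle replicates 1 and 2 together (edgeR adjusted p = 0.124).

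Of 25 HNF4 targets of the proximal tubule, 4 rose and 10 fell at 30 µg/kg, with a median log2 fold change of 0.02. Slc34a1 fell by 0.55 and Slc22a6, an organic anion carrier, by 0.81 on the log2 scale (edgeR adjusted p = 3.23e-05 and 4.63e-05). G6pc, of glucose release, had a log2 change of 0.23 (edgeR adjusted p = 0.598). Hnf4g, the second HNF4 gene, was not called (7.54 ± 1.92 CPM in vehicle, 6.83 ± 2.69 CPM at 30 µg/kg; SD, n = 5).

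**Figure D4:**
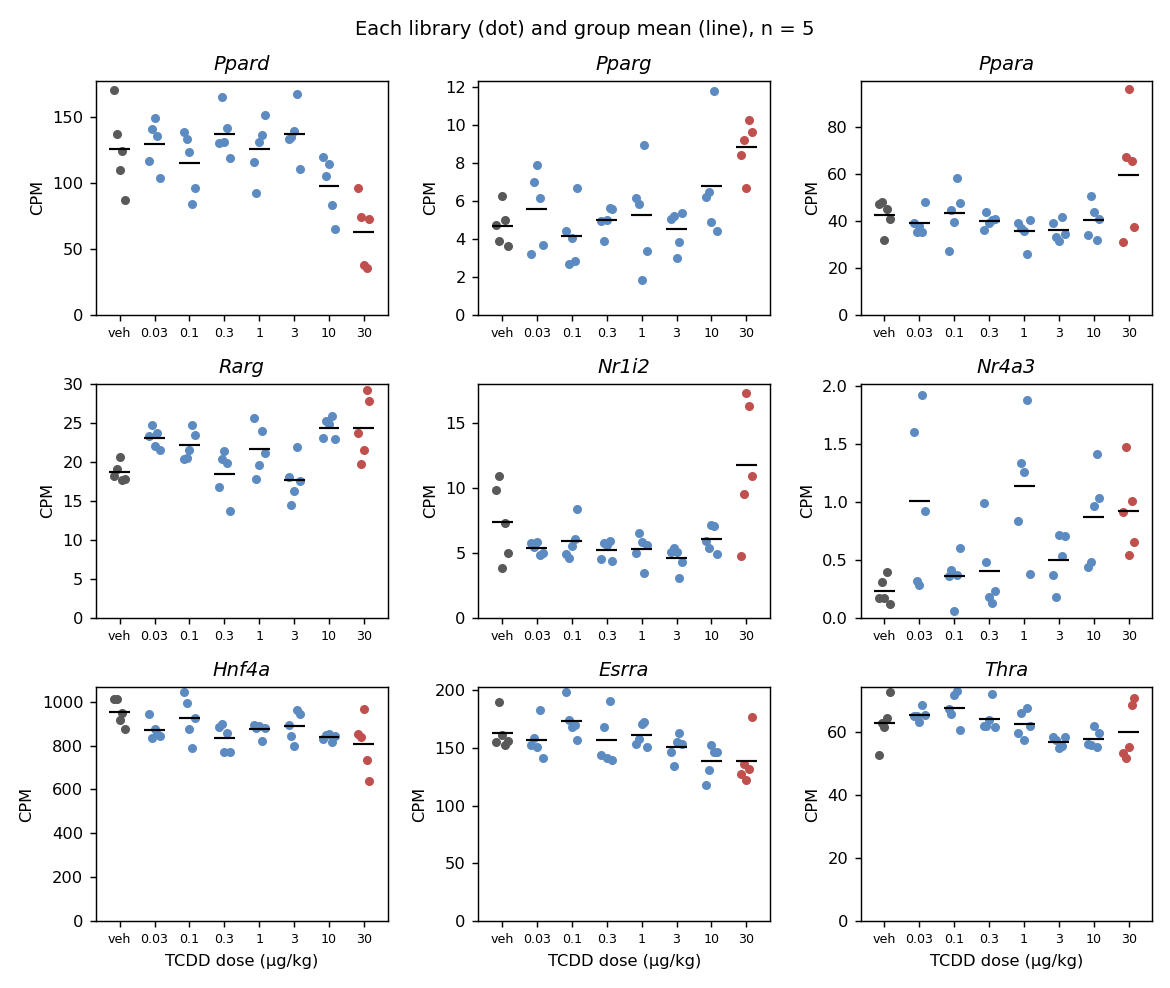
Level in CPM (vertical axes from 0) of 9 members in every library against TCDD dose in µg/kg; dots are libraries (grey vehicle, blue 0.03 to 10 µg/kg, red 30 µg/kg) and lines are means of 5. Pparg and Nr4a3 at 30 µg/kg do not overlap vehicle, while Ppard, Rarg, Hnf4a, Nr1i2, Ppara, Esrra and Thra do.

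The estrogen related receptors take no known hormone and direct mitochondrial and energy genes together with PGC-1 coactivators. Esrra was at between 153 and 190 CPM in vehicle mice (median 156), at 118, 131, 152, 146 and 146 CPM at 10 µg/kg and 128, 136, 122, 131 and 177 CPM at 30 µg/kg. All 10 µg/kg libraries, and all but 1 of those at 30 µg/kg, lay below vehicle. The highest 10 µg/kg library (152.4 CPM) was close to the lowest vehicle library (152.9 CPM). Of all genes, 6.15% had no overlap with vehicle at 10 µg/kg. The slope along the dose rank was -0.04 per rank (SE 0.01, edgeR adjusted p = 0.00713). It was called in each of the 40 fits that left out 1 library, and not without the 30 µg/kg group (-0.03 per rank, edgeR adjusted p = 0.0646). Against vehicle the log2 fold change was -0.23 at both 10 and 30 µg/kg and was called at neither (edgeR adjusted p = 0.154 and 0.0790), except that without 30 µg/kg replicate 5, its highest library, the difference at 30 µg/kg was -0.33 and was called. Of 24 tested targets of these receptors, Esrra included, 1 rose and 10 fell along the dose rank. At 30 µg/kg 1 rose and 2 fell (median log2 fold change -0.10). Cycs, which encodes cytochrome c, fell by 0.52 on the log2 scale (edgeR adjusted p = 0.000157).

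Esrrb (31.2 ± 12.8 CPM in vehicle, 39.6 ± 14.3 CPM at 30 µg/kg) and Esrrg (68.6 ± 9.23 and 71.1 ± 9.67 CPM) were not called (SD, n = 5). Esrrb was called without vehicle replicate 5 (log2 fold change 0.60). Esr1, the estrogen receptor alpha gene, was at 12.6 ± 3.43 CPM in vehicle mice and 15.3 ± 4.02 CPM at 30 µg/kg, with no call at any dose. At 1 µg/kg it stood at 18.6 ± 2.72 CPM, with 4 of 5 libraries above vehicle (log2 fold change 0.56, SE 0.16, edgeR adjusted p = 0.133).

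Of the genes for thyroid hormone receptors, Thra fell slightly along the dose rank. Thra was at 52.8, 63.0, 61.5, 64.5 and 72.7 CPM in vehicle mice and 53.5, 51.9, 55.2, 68.6 and 70.8 CPM at 30 µg/kg, so the groups overlapped. The lowest group means were those at 3 µg/kg (57.1 ± 1.62 CPM; SD, n = 5) and 10 µg/kg (57.9 ± 2.97 CPM). Its slope along the dose rank was -0.03 per rank (SE 0.01, edgeR adjusted p = 0.0290). The slope was not called from the deposited counts of 1 strand (-0.01 per rank, edgeR adjusted p = 0.649), and 5.7% of its exonic bases are shared with Nr1d1, a clock gene on the other strand. It was also lost without vehicle replicate 5 or 30 µg/kg replicate 1 or 2 (-0.02 per rank, edgeR adjusted p 0.0579 to 0.0655). Thrb was not called (34.7 ± 4.37 CPM in vehicle, 31.4 ± 3.65 CPM at 30 µg/kg; SD, n = 5). Of 17 thyroid hormone targets, both receptors included, 2 rose and 4 fell at 30 µg/kg (median log2 fold change -0.02). Dio1, the deiodinase that makes active hormone, fell by 0.51 on the log2 scale (edgeR adjusted p = 0.0275).

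Nr4a3 belongs to the NR4A receptors, which act as immediate early genes and need no ligand. It was at 0.173, 0.304, 0.173, 0.395 and 0.113 CPM in vehicle, that is 2 to 6 counts, and at 0.909, 1.47, 0.542, 1.01 and 0.649 CPM at 30 µg/kg, 8 to 26 counts. The 2 groups did not overlap, and nor did vehicle and 10 µg/kg (0.434 to 1.41 CPM). The same was so for 6.41% of all genes at 30 µg/kg and 6.15% at 10 µg/kg. At the top dose the log2 change was 1.97 (SE 0.60, edgeR adjusted p = 0.0163), and it was called without each vehicle or 30 µg/kg library in turn, though not without vehicle replicates 1 and 2 together (2.02, edgeR adjusted p = 0.0627). The value at 1 µg/kg was 2.28 (edgeR adjusted p = 0.0670). For 10 µg/kg it came to 1.89 (edgeR adjusted p = 0.0516). DESeq2 called Nr4a3 at both of these doses. At 0.03 µg/kg 2 libraries were high (1.60 and 1.92 CPM) and 2 others near vehicle (0.319 and 0.278 CPM), so the level varied widely within groups, and no trend along the dose rank was called (edgeR adjusted p = 0.189).

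Of the 2 high libraries, 0.03 µg/kg replicate 4 also held Fos at 35.2 CPM against 0.389 to 0.98 CPM in vehicle. The other was 1 of the 2 libraries with the most adrenal transcripts. The second of these, 1 µg/kg replicate 4, had the highest Nr4a3 of its group (1.88 CPM). A fit without the 2 libraries richest in adrenal transcripts was made at 0.03 and 1 µg/kg, but its values for Nr4a3 are not reported here. Beyond that fit, the part of the adrenal transcripts, or of the state of the library with high Fos, in the level of Nr4a3 was not tested. Among 17 tested immediate early genes 6 rose and none fell at 30 µg/kg (median log2 fold change 0.67). Nr4a1, the third member of the family, had a log2 change of 0.84 (edgeR adjusted p = 0.351). Nr4a2 was at 0.756 ± 0.264 CPM in vehicle mice and 0.846 ± 0.198 CPM at 30 µg/kg (SD, n = 5), with no call.

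Nr3c1 encodes the glucocorticoid receptor. Its mean was 105 ± 14.1 CPM in vehicle mice and 89.5 ± 33.3 CPM at 30 µg/kg (SD, n = 5; log2 fold change -0.23, edgeR adjusted p = 0.365), with 3 libraries below and 1, replicate 2, above all vehicle libraries. Without replicate 2 the value was -0.42 and was called (edgeR adjusted p = 0.0363). Of 20 known targets 10 rose and 1 fell at 30 µg/kg (median log2 fold change 0.65). Per1, which is also a clock gene, rose by 1.26 on the log2 scale (edgeR adjusted p = 0.0332). Mt1 had the lowest edgeR p of the called targets. Of the other textbook targets, Fkbp5 had a log2 change of 0.26 (edgeR adjusted p = 0.585) and Tsc22d3 of 0.41 (edgeR adjusted p = 0.254), without a call. Fkbp5 was at 63.2, 55.1, 214, 115 and 68.9 CPM at 30 µg/kg, against 46.7 to 100.5 CPM in vehicle. Its replicates 3 and 4 thus lay above all vehicle libraries.

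The COUP-TF, TR2 and TR4 receptors, and Nr5a2 (LRH-1), are orphan receptors that often act as repressors or as tissue regulators. Nr2f6 was at 65.7, 95.3, 59.2, 61.1 and 65.6 CPM in vehicle mice and 49.0, 61.5, 42.8, 38.0 and 64.2 CPM at 30 µg/kg, with 3 of 5 libraries below vehicle. It was not called (log2 fold change -0.44, SE 0.16, edgeR adjusted p = 0.0640). From the deposited counts of 1 strand it was called (-0.50, edgeR adjusted p = 0.000302, over a range of 0.000302 to 0.354 in the settings other than leaving out 1 library), by DESeq2 (adjusted p = 0.0258), and without 30 µg/kg replicate 2 or 5 (-0.51 and -0.54). More than 50% of its exonic bases (54.4%) are shared with Ocel1. Nr2f1 (1.22 ± 0.658 CPM in vehicle, 1.86 ± 1.09 CPM at 30 µg/kg; SD, n = 5) and Nr2f2 (122 ± 9.52 and 115 ± 16.1 CPM) were not called. Nr2c1 (10.9 ± 1.72 and 12.4 ± 1.47 CPM) and Nr2c2 (24.3 ± 5.17 and 24.1 ± 4.81 CPM) were not called either, and 31.2% of the exonic bases of Nr2c2 are shared with other genes. Nr5a2 was at 0.530 ± 0.455 and 0.351 ± 0.359 CPM, too few counts to show a moderate change.

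Coregulators do not bind DNA themselves but carry the chromatin activity that receptors recruit. Ncor1, the nuclear corepressor, was the most abundant of the 4 at 246 ± 15.6 CPM in vehicle mice and 218 ± 16.4 CPM at 30 µg/kg (SD, n = 5). Of its 30 µg/kg libraries 4 of 5 lay below vehicle, with a log2 fold change of -0.18 (SE 0.07, edgeR adjusted p = 0.0907). The coactivator Ncoa1 was at 52.2 ± 4.16 and 47.9 ± 3.08 CPM, Nrip1, a corepressor of metabolic genes, at 41.7 ± 2.64 and 45.0 ± 5.00 CPM, and Ppargc1b, the PGC-1 beta coactivator, at 11.3 ± 1.71 and 11.5 ± 1.87 CPM. None of the 4 was called in any comparison. In a further list of 29 coregulators, 1 rose and 3 fell at 30 µg/kg, beside 11 other nuclear receptors of which none was called. Ncoa5 and Ncoa3 fell by 0.30 and 0.25 on the log2 scale (edgeR adjusted p = 0.0110 and 0.0152), and Ncoa2 by 0.26 (edgeR adjusted p = 0.0348). In the clock list, which holds Nr1d1 and Nr1d2, 1 of 17 rose and 3 fell, and Arntl fell by 0.54 on the log2 scale (edgeR adjusted p = 0.00347).

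**Figure D5:**
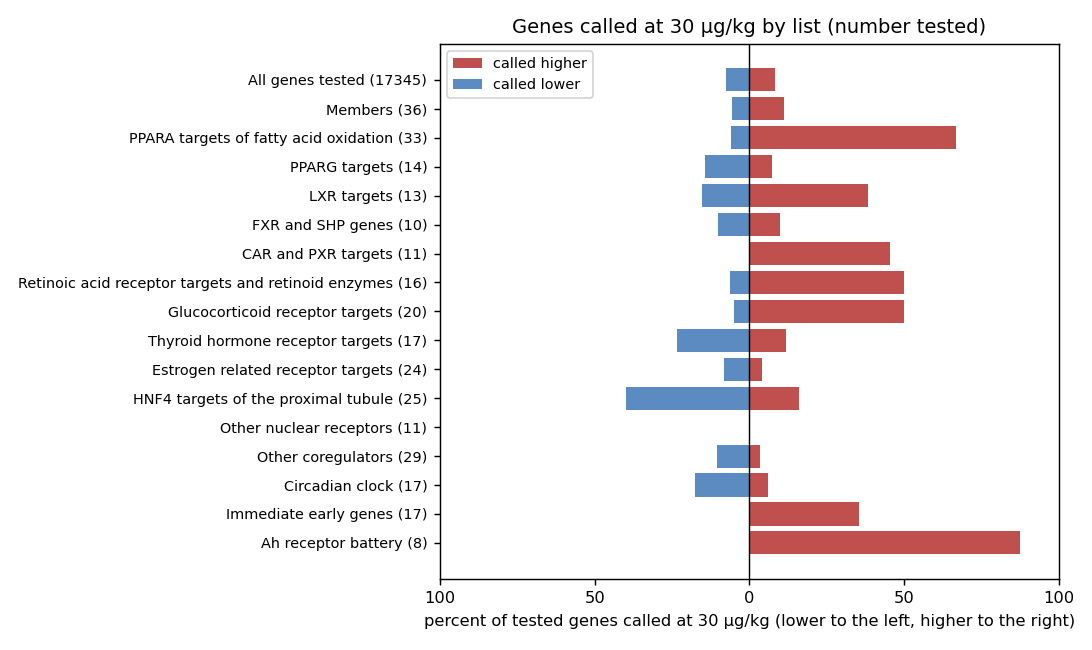
Percent of tested genes called at 30 µg/kg in each list, lower to the left in blue and higher to the right in red, with the number tested in brackets. The members (4 of 36 higher, 2 lower) lie close to all genes tested, while 22 of 33 PPAR alpha targets and 7 of 8 Ah receptor battery genes were called higher.

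The 27 members called in no comparison had log2 fold changes from -0.56 to 0.61 at 30 µg/kg, and 20 of them lay within 0.25 of 0. Their median SE was 0.15, and the highest was 0.78, for Nr5a2. A call that misses the threshold does not show that a level was the same. Markers of other cells moved at the same dose: of 9 endothelial genes 6 rose and none fell, with a summed level of 646 to 785 CPM in vehicle mice and 870 to 1018 CPM at 30 µg/kg. Of 9 macrophage genes 7 rose and none fell, from 198 to 247 CPM to 316 to 614 CPM. Rises were also called at 10 µg/kg, for 7 endothelial and 7 macrophage genes. At 3 µg/kg 2 endothelial and 5 macrophage genes rose, and at 1 µg/kg 3 macrophage genes. At 30 µg/kg 3 of 7 podocyte genes and 3 of 9 fibroblast and pericyte genes rose. Of 7 collecting duct principal cell genes 4 fell, and of 6 distal convoluted tubule genes 3 fell. Of 8 intercalated cell genes 1 rose and 3 fell. At 10 µg/kg 5 podocyte genes and 2 fibroblast and pericyte genes rose. There 3 principal cell, 3 distal convoluted tubule and 4 intercalated cell genes fell. The part of these cells in the levels of the members was not tested.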

How the data were processed

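Total RNA came from frozen right kidney by TRIzol extraction, per the labels' protocols, and was sequenced as 150 bp read pairs, per the design text. FastQC 0.11.7, Trimmomatic 0.39, STAR 2.7.3a and DESeq2 are named in the submitters' processing notes, as are the builds GRCm39 and mm10, with no statement of which was used. The authors deposited whole-number read counts per gene and library in STAR's layout. The unstranded column was used here. One of the 2 stranded columns held 50.4 to 51.0% of the stranded counts, so the reads do not mark strand, and reads of genes that overlap on opposite strands cannot be told apart. A stranded column served as an alternative only because it treats overlapping genes differently. STAR's 4 summary lines stayed out (unmapped 1.41 to 2.66%, multimapping 6.98 to 9.70%, no feature 5.28 to 7.27% and ambiguous 5.40 to 5.98% of a library's reads). Of 55359 gene identifiers, 52083 were named with GENCODE M21, which also gave exon lengths and shared exonic bases. Unnamed genes held 0.663% of the counts. A further deposited table of transformed values was not used.

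Groups came from the dose label. Replicates were numbered in deposition order and pair nothing. The design text gives 5 mice per dose, and p-values measure the spread between these libraries. The 80 replicate pairs had a chi-square per degree of freedom of 6.90 to 78.8, so no pair was merged. The fits used edgeR 4.0.16 (limma 3.58.1, R 4.3.3). Genes passing filterByExpr were scaled by TMM (0.966 to 1.09) and tested with robust quasi-likelihood F-tests in 1 fit of 40 libraries (biological coefficient of variation 17.1%). Fold changes used a prior count of 0.125. The fit was tested on simulated data. The alternatives were DESeq2 1.42.0, its size factors, no filter, the stranded column, the 2 groups alone, no 30 µg/kg group for the trend, and leaving out each library. Leaving out vehicle replicates 1 and 2 together, or the 2 libraries with the most adrenal transcripts, was added after the data were seen. Reads carry no molecular identifiers, so counting precision covers counting error only.

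Every member is reported, in full where called. From each list of known targets at most 4 genes are named, the called genes with the lowest p at 30 µg/kg and set textbook genes. The members and lists were chosen with earlier results of these data known. Promoters are RefSeq's on GRCm38.p6. Target lists were described by counts and medians, with no set test.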

Additional observations from a re-analysis of the deposited data

Results flagged for a closer look

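In groups of 5 libraries, the highest or lowest library was compared with its nearest neighbour, and 25 of 300 groups held a library whose gap was over 0.71 of the range of the group, where about 15 would do so by chance at 1 in 20. At most 4 fell in 1 library, 3 µg/kg replicate 4. Pparg was highest at 11.8 CPM in 10 µg/kg replicate 4 (next 6.48 CPM). Rara was lowest at 26.4 CPM in 0.03 µg/kg replicate 1 (next 29.8 CPM). Nr1i3 was highest at 0.119 CPM in 0.1 µg/kg replicate 1 (next 0.0 CPM) and highest at 0.247 CPM in 0.3 µg/kg replicate 1 (next 0.0 CPM) and highest at 0.535 CPM in 30 µg/kg replicate 5 (next 0.226 CPM). Hnf4a was lowest at 820 CPM in 1 µg/kg replicate 4 (next 882 CPM). Nr2c1 was highest at 12.8 CPM in 1 µg/kg replicate 5 (next 12.2 CPM). Nr2f1 was highest at 3.0 CPM in 0.3 µg/kg replicate 3 (next 1.45 CPM) and lowest at 0.815 CPM in 1 µg/kg replicate 3 (next 1.85 CPM). Nr2f2 was lowest at 104 CPM in 0.3 µg/kg replicate 1 (next 125 CPM) and lowest at 114 CPM in 3 µg/kg replicate 4 (next 129 CPM). Nr2f6 was highest at 95.3 CPM in vehicle replicate 2 (next 65.7 CPM) and lowest at 49.9 CPM in 10 µg/kg replicate 1 (next 61.2 CPM). Esrra was highest at 190 CPM in vehicle replicate 2 and highest at 177 CPM in 30 µg/kg replicate 5 (next 137 CPM). Esrrb was highest at 46.9 CPM in 3 µg/kg replicate 4 (next 34.6 CPM). Esrrg was lowest at 64.6 CPM in 3 µg/kg replicate 4 (next 71.9 CPM). Nr3c1 was lowest at 86.9 CPM in 1 µg/kg replicate 4 (next 108 CPM). Nr5a2 was highest at 0.789 CPM in 0.3 µg/kg replicate 2 (next 0.55 CPM). Nr0b2 was lowest at 0.678 CPM in 30 µg/kg replicate 3 (next 1.63 CPM). Thra was highest at 72.2 CPM in 0.3 µg/kg replicate 4 (next 63.9 CPM). Nrip1 was highest at 47.5 CPM in 3 µg/kg replicate 4 (next 38.5 CPM). Of the library totals, those of 0.1 µg/kg replicate 2 (22.7, in units of 1000000 gene counts), 1 µg/kg replicate 1 (20.3) and 30 µg/kg replicate 5 (24.0) were highest and set apart in their groups.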

How the results depend on the processing

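Of 886 values of single members, 63 lost a call, 9 gained one and 0 called values changed sign. The other 814 kept their side of the threshold, and 24 of these changed sign without a call in either fit. At 1 µg/kg DESeq2 called 1 member in place of 0, and leaving out 1 library gave 0 to 1. At 10 µg/kg, in place of 1, DESeq2 called 2, and leaving out vehicle replicates 1 and 2 together gave 0 (chosen after seeing the data); leaving out 1 library gave 0 to 2. At 30 µg/kg, in place of 6, the 2 groups alone gave 1 (Pparg, with 969 genes called in place of 2766), and leaving out vehicle replicates 1 and 2 together gave 2 (Ppard and Nr1i2). Leaving out 1 library gave 2 to 8, with 2 without 30 µg/kg replicate 4. For 30 against 10 µg/kg, in place of 1, the 2 groups alone and the stranded column gave 0, and leaving out 1 library gave 0 to 4 (4 without 30 µg/kg replicate 1, and 0 without 10 µg/kg replicate 1 or 5 or 30 µg/kg replicate 3 or 4). Along the dose rank, in place of 6, leaving out the 30 µg/kg group gave 1 (Thra), and leaving out 1 library gave 3 to 8, with 3 without 30 µg/kg replicate 4 or 5. In the fit of the 2 groups alone Nr4a3 failed the count filter. The cause of these differences was not tested, beyond the fewer libraries in each smaller fit. Counts limit Nr1i3, Nr4a3, Rxrg and Nr5a2. No paired analysis was possible because the labels give no replicate numbers.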
